A study of Mus musculus with 6 samples.

Results

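The genes described here are 10 components of the Hippo pathway and its transcriptional output. They are the kinases Lats1 and Lats2, the cofactors Yap1 and Wwtr1 (the gene for TAZ), the DNA-binding partners Tead1, Tead2, Tead3 and Tead4, the junction protein Amotl2 and the target gene Ankrd1. They were taken by symbol from a table of 18943 mouse genes, which holds a row for each of the 10. The rule uses no measured value, but the members and the lists used below were chosen with earlier results of these data known. The study asked how ligands of G protein-coupled receptors act on muscle stem cells (MuSCs), and this experiment measured RNA by bulk sequencing. MuSCs were purified by fluorescence-activated cell sorting (FACS) from 8 weeks old C57BL/6 mice of WT genotype and kept in culture for 5 days. They received the solvent DMSO, 100 nM Endothelin-3 (ET-3) or 100 nM Neurotensin (NT), with 2 libraries per group. The concentrations are those of the labels, and the study's general culture methods give others. The labels do not say whether libraries of a group came from separate mice or cultures, and the study describes its samples as biological and names more of them per group than were analysed here. The p-values therefore measure only the spread between these libraries, which may be technical.

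In the Hippo pathway, LATS kinases phosphorylate YAP and TAZ, which holds these cofactors in the cytoplasm or marks them for degradation. Unphosphorylated YAP and TAZ enter the nucleus, bind a TEAD factor and switch on genes such as Ccn1, Ccn2 and Ankrd1. RhoA signaling and actin tension are known to keep LATS activity low, and YAP is known to favor proliferation of muscle stem cells. For MuSCs the study proposes the other direction, with RhoA acting through the kinase ROCK to suppress YAP. Most of this control acts on the proteins and their location, which RNA levels do not measure.

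TEAD factors recognize the letters GGAATG. The stretches below show each different match within 250 bases before the annotated starts of the listed genes and of Ccn1, a standard YAP/TAZ target, except for a further Tead3 match that overlaps the last Tead3 stretch. They are shown because the members include both the factors that read this motif and genes known to be controlled through it. Sequences and starts are from RefSeq on GRCm38.p6, each stretch is written 5′ to 3′ on the strand that reads GGAATG, and the capitals mark the motif with 12 bases on either side.
Yap1, chr9:8004720-8004749, minus strand: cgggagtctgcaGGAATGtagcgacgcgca
Wwtr1, chr3:57576029-57576058, minus strand: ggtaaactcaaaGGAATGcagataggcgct
Tead3, chr17:28350970-28350999, minus strand: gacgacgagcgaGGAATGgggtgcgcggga
Tead3, chr17:28350706-28350735, plus strand: gccggaatgtacGGAATGagcccggccgga
Amotl2, chr9:102717727-102717756, minus strand: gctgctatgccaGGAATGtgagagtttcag
Ankrd1, chr19:36120037-36120066, minus strand: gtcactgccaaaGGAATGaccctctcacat
Ankrd1, chr19:36119950-36119979, minus strand: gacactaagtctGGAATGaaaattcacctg
Ccn1, chr3:145650071-145650100, plus strand: tcaaacatctcaGGAATGttggttggcgcg

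Promoter sequences were matched for 8 of the 10 genes, without Tead1 and Tead4. Ankrd1 held the motif 210 and 123 bases before its start, Amotl2 65 bases before and Ccn1 103 bases before. The cofactor genes carried it as well, 141 bases before the start of Yap1 and 136 bases before a start of Wwtr1. Tead3 held it 182 bases before its first listed start, and 123 and 114 bases before the second. Among 32851 promoters of the same length, 12.6% held at least 1 match on either strand and 1.02% held at least 2. The windows of Tead2, Lats1 and Lats2 do not contain these letters. The CArG box, the motif of serum response factor, occurs in 1.47% of all these promoters and in none of the windows examined here. These distances are to RefSeq starts, and the gene positions given below begin further upstream for Ankrd1, Amotl2 and the second Tead3 start. Both Ankrd1 matches, the Amotl2 match and the matches before the second Tead3 start lie inside those gene positions. These matches are descriptions of sequence, and binding was not measured.

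Every value below is a read count per gene that the authors divided by a size factor of the library and rounded, called the scaled value. Dividing by a library factor leaves values comparable between libraries for 1 gene, and levels of different genes are compared only per kilobase of exon. The summed scaled value per library ran from 4214458 to 4600575, and the reads on genes behind it, read back from the spacing of the low values, from 3628952 to 5396233. Counting error alone was 2.08% to 7.62% of the scaled value for the 10 genes. The DMSO libraries differed from each other slightly more than counting error (mean chi-square per gene 1.52), whereas the ET-3 pair (0.863) and the NT pair (0.952) differed by no more than counting error. Treating each treated pair as 1 sample is therefore given as an alternative where it ends a call. Groups were compared with limma on log2(scaled value + 1), and p-values were adjusted over 13921 genes by the Benjamini-Hochberg method. A gene was called at an adjusted p of at most 0.05, and fold changes are on this log2(scaled value + 1) scale.

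The sorted cells were checked against marker genes. Pax7, the defining factor of MuSCs, was present in every library at 857 and 1070 in DMSO, 1754 and 1730 in ET-3 and 1653 and 1599 in NT. It rose by 0.86 ± 0.08 (SE) on the log2 scale with ET-3 and by 0.76 ± 0.08 with NT (limma, adjusted p = 9.75e-06 and 2.48e-05), and both calls were lost with each treated pair averaged (adjusted p = 0.0848 and 0.102). Pax7 is 1 of 10 listed muscle stem cell genes, which went both ways. Their sum was 7620 to 8205 with DMSO, 7577 to 7835 with ET-3 and 6711 to 6954 with NT. Of the 8 tested, 3 were called higher and 3 lower with ET-3, and 3 higher and 4 lower with NT. Of all tested genes 63.7% were called with ET-3 and 62.2% with NT. Cdh15, named after its values were seen, was at 1547 and 1746 in DMSO and 436 to 496 in treated libraries. Myog, which drives terminal differentiation of myoblasts, was at 1157 and 1335 with DMSO and between 28 and 38 in all 4 treated libraries. The sum of 10 genes of differentiating muscle was 16239 to 18143 with DMSO, 2394 to 2431 with ET-3 and 1858 to 2036 with NT, and all 10 fell with either ligand. Summed values of other cell types were lower than this. Smooth muscle and pericyte genes, mostly Acta2 and Cspg4, reached 2175 to 2424 with DMSO, 723 to 786 with ET-3 and 776 to 797 with NT. Endothelial genes reached 12 to 27, 96 to 104 and 88 to 107 in the same order, fibroadipogenic genes 204 to 211, 70 to 77 and 90 to 97 and macrophage genes 34 to 35, 21 to 45 and 27 to 28. Rows were present for 6 of 6 smooth muscle and pericyte genes, 5 of 6 endothelial, 4 of 6 fibroadipogenic and 3 of 6 macrophage genes. Pecam1 was at 3 to 15, Cdh5 at 0 to 5, Myh11 at 0 to 4 and Pdgfra at 20 to 44 over the 6 libraries. Other genes of these lists differed more between the groups, and they are named after their values were seen. The pericyte genes Pdgfrb and Rgs5 were at 227 and 278 and at 117 and 150 in DMSO, against 3 to 13 and 2 to 5 in the treated libraries. Col1a1, a fibroblast collagen gene, was at 148 and 146 in DMSO and 2 to 8 in the treated libraries. Tek, a receptor gene on the endothelial list, was at 2 and 1 in DMSO and 42 to 70 in the treated libraries. Which cells its RNA came from was not tested. Of the endothelial genes with a row, Tek held the largest part of their sum in every treated library. In bulk RNA, fewer cells of a type and less RNA per cell cannot be told apart. The part of these shifts in the results below was not tested.

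With ET-3, 9 of the 10 genes were called, 4 higher and 5 lower, where 63.7% of all tested genes were called, 30.6% higher and 33.2% lower. With NT, 7 of the 10 were called, 2 higher and 5 lower, where 62.2% of all genes were called, 29.7% higher and 32.5% lower. Both comparisons use the same DMSO libraries, so their calls are not separate evidence. Lats1 and Tead2 were called higher with both ligands, and Tead1, Tead3, Tead4, Lats2 and Amotl2 lower with both. The median log2 fold change of the 10 genes was −0.23 with ET-3 and −0.28 with NT, beside −0.01 for all tested genes in either comparison. All 10 genes had groups that did not overlap between ET-3 and DMSO, as did 79.6% of all genes, and 8 did so between NT and DMSO, as did 80.6% of all genes. The study's additional threshold of a 2-fold change left only Tead4 with ET-3 (21.5% of all genes passed) and Tead3 and Tead4 with NT (20.5% of all genes passed).

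**Figure D1:**
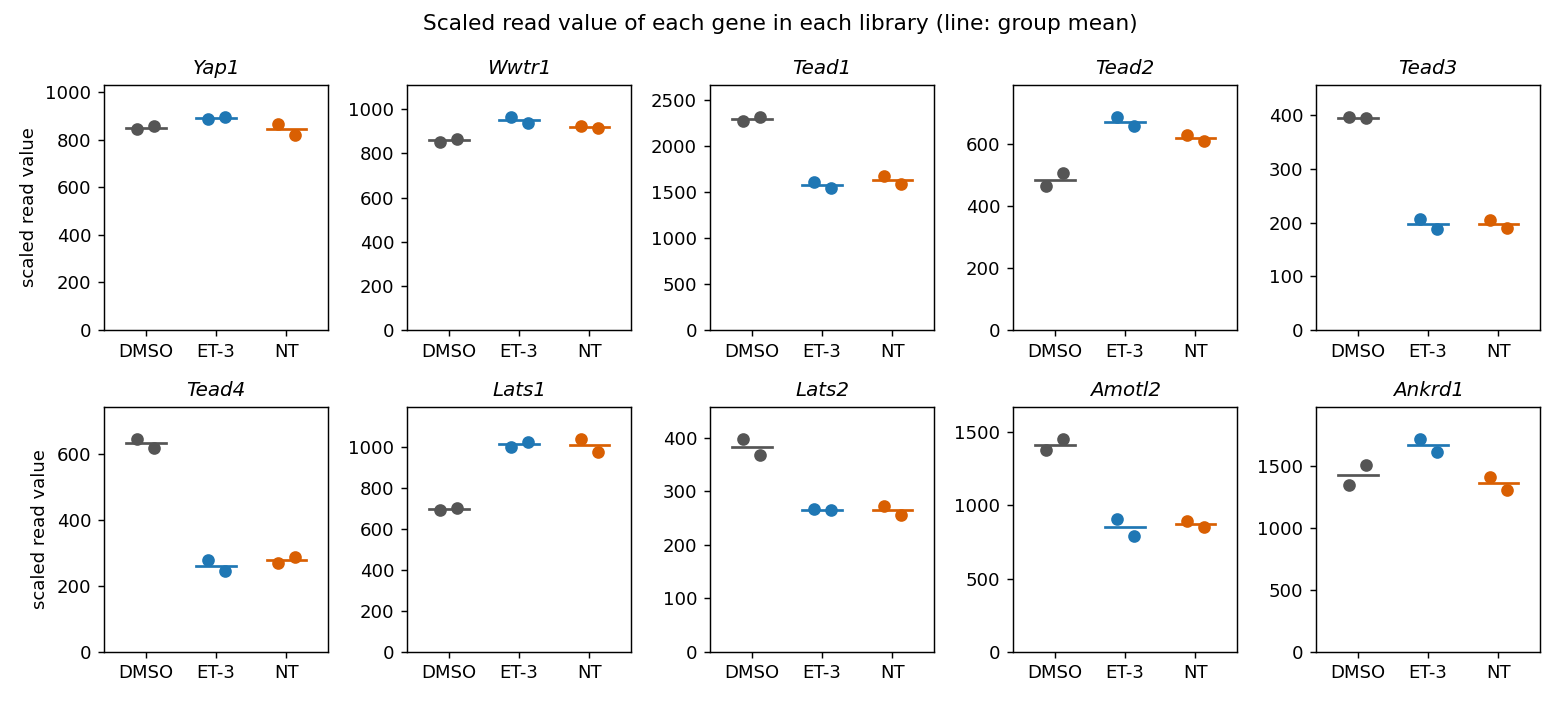
Scaled read value (vertical axis, from 0, own range for each gene) of the 10 genes in the 2 libraries of each group, with a line at the group mean. Tead1, Tead3, Tead4, Lats2 and Amotl2 sit lower in all 4 treated libraries than in DMSO, Lats1 and Tead2 sit higher, and the Yap1 points with NT span those with DMSO.

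The kinase genes moved in opposite directions. Lats1 (chr10:7681214-7716460, plus strand, GRCm38) encodes a kinase that phosphorylates YAP and TAZ, and its scaled value was 693 and 702 in DMSO, 1001 and 1026 in ET-3 and 1042 and 977 in NT. Every treated library was higher than both DMSO libraries. Lats1 rose 1.45-fold with ET-3 (log2 fold change 0.54 ± 0.05 SE, limma, adjusted p = 4.99e-06) and 1.45-fold with NT (0.53 ± 0.05, adjusted p = 5.87e-06).

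Lats2 (chr14:57689662-57758388, minus strand), its paralog and itself a known YAP/TAZ target in a feedback loop, was at 398 and 367 in DMSO, 266 and 264 in ET-3 and 273 and 255 in NT. Here every treated library was lower than both DMSO libraries. Lats2 fell by 0.53 ± 0.07 on the log2 scale with ET-3 (limma, adjusted p = 8.21e-05) and by 0.53 ± 0.07 with NT (adjusted p = 7.91e-05). When each treated pair was averaged to 1 sample the fold changes were as large and the calls were lost (limma, adjusted p = 0.0568 and 0.0592). The annotated exons of Lats2 share 2955 bases, 42.4% of their length, with Gm49361 on the same strand, so its level depends on how reads in that stretch were assigned. The study's methods state that reads on more than 1 gene were left out, but name another counting version than the processing notes. If that rule was applied with Gm49361 annotated, the shared bases add no reads. Per kilobase of exon, the ratio of Lats1 to Lats2 was 1.66 and 1.83 in DMSO, 3.60 and 3.71 in ET-3 and 3.65 and 3.66 in NT. Over the 4016 exon bases of Lats2 that no other gene shares, a length chosen after seeing the data, the ratio was 0.958 and 1.05 in DMSO, 2.07 and 2.14 in ET-3 and 2.10 and 2.11 in NT. The order of the kinase RNAs in DMSO thus depends on the length used. The ratio was higher in every treated library than in both DMSO libraries. A change of length scales all libraries alike and cannot alter that. An exact permutation test of 2 against 2 libraries cannot give a two-sided p below 0.333, and no test is given for this ratio.

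The cofactor genes differed little between the groups. Yap1 (chr9:7931999-8004596, minus strand) was at 844 and 858 in DMSO, 888 and 897 in ET-3 and 867 and 822 in NT. The NT libraries lay on both sides of the DMSO libraries, and the ET-3 libraries lay slightly above them. The log2 fold change was 0.07 ± 0.05 with ET-3 and −0.01 ± 0.05 with NT, and neither was called (limma, adjusted p = 0.214 and 0.840). Scaling by library totals, which moved the median of all genes to 0.08 with ET-3 and 0.10 with NT, gave Yap1 0.16 with ET-3 (limma, adjusted p = 0.00793) and 0.10 with NT (adjusted p = 0.0605). This scaling divides each library by 1 number, so Yap1 and the median of all genes necessarily moved by about as much.

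Wwtr1 (chr3:57455649-57575910, minus strand), which encodes the YAP paralog TAZ, was at 852 and 867 in DMSO, 966 and 938 in ET-3 and 924 and 917 in NT. All 4 treated libraries were above both DMSO libraries, by a small margin. Wwtr1 rose 1.11-fold with ET-3 (0.15 ± 0.04, limma, adjusted p = 0.0124), and its difference with NT was 0.10 ± 0.04 (adjusted p = 0.0688). The ET-3 call was lost without ET-3 replicate 1 (0.13, limma, adjusted p = 0.0731), with each treated pair averaged (adjusted p = 0.107) and when each library's trend against coverage was removed (0.04, adjusted p = 0.331). The same removal gave 0.12 with NT (limma, adjusted p = 0.0170), and library totals gave 0.21 (adjusted p = 0.00100). Per kilobase of exon, Wwtr1 exceeded Yap1 by a ratio of 1.96 in both DMSO libraries, 2.11 and 2.03 in ET-3 and 2.06 and 2.16 in NT. Yap1 has 9257 bases of annotated exon and a longest transcript of 5282 bases. With longest transcripts as the length, the ratio in the 6 libraries fell between 1.14 and 1.25.

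**Figure D2:**
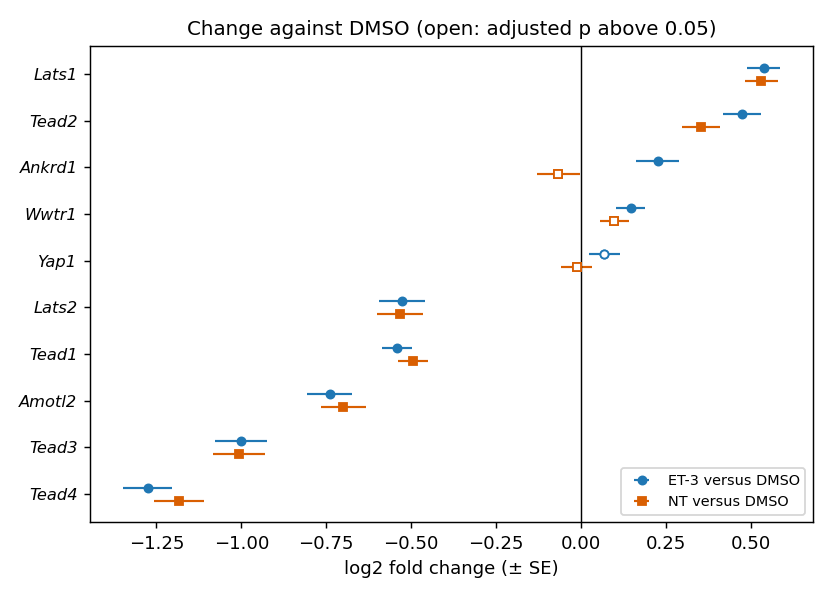
Log2 fold change against DMSO (horizontal axis, ± SE from limma) of the 10 genes, ordered by the ET-3 value, with circles for ET-3 and squares for NT and open symbols for an adjusted p above 0.05. Tead4 lies lowest at −1.28 and −1.18, Lats1 highest at 0.54 and 0.53, and Ankrd1 is on the positive side with ET-3 and on the negative side with NT.

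The TEAD genes split, with Tead2 higher and Tead1, Tead3 and Tead4 lower in treated MuSCs. Tead4 (chr6:128224288-128300823, minus strand), a TEAD factor known to be induced during myoblast differentiation, was at 648 and 619 in DMSO, 278 and 245 in ET-3 and 270 and 287 in NT. The treated libraries lay far below the DMSO libraries. Tead4 was 2.42-fold lower with ET-3 (log2 fold change −1.28 ± 0.07, limma, adjusted p = 2.35e-07) and 2.27-fold lower with NT (−1.18 ± 0.07, adjusted p = 4.27e-07), which made it the member with the largest change under both ligands. The sums of differentiating muscle genes above moved in the same direction between the same libraries, and their part in this result was not tested.

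Tead3 (chr17:28331671-28350817, minus strand) was at 397 and 394 in DMSO, 207 and 188 in ET-3 and 204 and 189 in NT. The groups were well apart, and the ligands gave nearly the same level. Tead3 fell by 1.00 ± 0.08 on the log2 scale with ET-3 (limma, adjusted p = 1.87e-06), just short of a 2-fold change, and by 1.01 ± 0.08 with NT (adjusted p = 1.92e-06), just past it.

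Tead1 (chr7:112679318-112906807, plus strand) was at 2278 and 2321 in DMSO, 1607 and 1551 in ET-3, and 1674 and 1592 in NT. It was lower in all 4 treated libraries. Tead1 fell by 0.54 ± 0.04 on the log2 scale with ET-3 (limma, adjusted p = 2.81e-06) and by 0.49 ± 0.04 with NT (adjusted p = 5.87e-06).

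Tead2 (chr7:45215753-45233644, plus strand) was at 464 and 506 in DMSO, 689 and 659 in ET-3 and 629 and 610 in NT. It was the TEAD gene that was higher in every treated library. Tead2 rose 1.39-fold with ET-3 (0.47 ± 0.06, limma, adjusted p = 4.31e-05) and 1.28-fold with NT (0.35 ± 0.06, adjusted p = 0.000355), and both calls were lost with each treated pair averaged (adjusted p = 0.0639 and 0.0943). The ET-3 and NT libraries did not overlap, but the difference between the ligands was not called (−0.12 ± 0.06, limma, adjusted p = 0.272).

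These changes altered the make-up of the TEAD family. Summed per kilobase of exon, the 4 TEAD genes reached a scaled value of 504 and 507 in DMSO, 370 and 348 in ET-3 and 360 and 353 in NT. Tead4 held 35.7% and 33.9% of that sum in DMSO, 20.9% and 19.6% in ET-3 and 20.8% and 22.6% in NT. Tead2 held 19.2% and 20.8% in DMSO, 38.8% and 39.5% in ET-3 and 36.5% and 36.1% in NT. Tead2 therefore stood below Tead4 in both DMSO libraries and above it in all 4 treated libraries. The share of Tead1 stayed between 32.0% and 34.3% in all 6 libraries while its level fell with the sum. Tead3 held 11.7% and 11.6% with DMSO and between 7.98% and 8.44% in the treated libraries. Using the longest transcript of each gene instead moved the mean DMSO share of Tead4 from 34.8% to 29.7% and that of Tead3 from 11.6% to 16.5%, and the change of order between Tead2 and Tead4 held with either length. The shares are descriptions, with 2 libraries per group and no test.

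**Figure D3:**
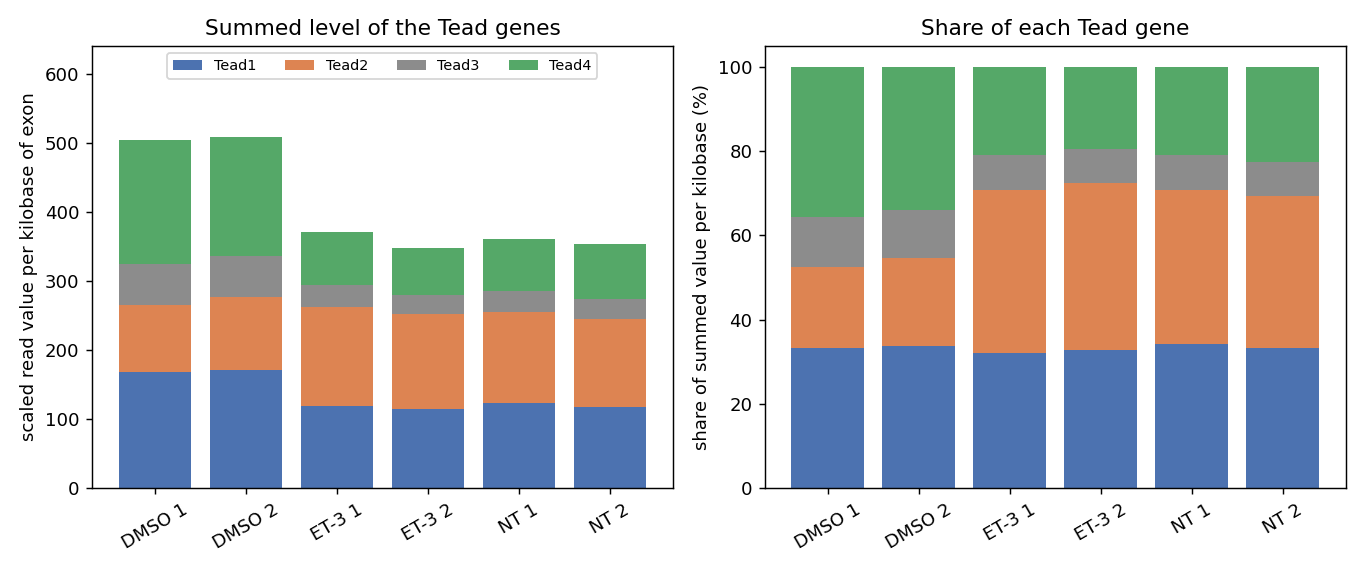
Scaled read value per kilobase of annotated exon (left, stacked from 0) and share of the summed value in % (right) of Tead1, Tead2, Tead3 and Tead4 in each of the 6 libraries, given by group and replicate. The stacks are lower in the treated libraries, and the Tead2 share is 36.1% to 39.5% there against 19.2% and 20.8% with DMSO.

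Amotl2 (chr9:102716672-102733418, plus strand) encodes an angiomotin that binds YAP, activates LATS kinases and is itself a YAP/TAZ target. It was at 1376 and 1457 in DMSO, 909 and 790 in ET-3 and 892 and 851 in NT. All 4 treated libraries were below both DMSO libraries. Amotl2 fell by 0.74 ± 0.07 on the log2 scale with ET-3 (limma, adjusted p = 5.42e-06) and by 0.70 ± 0.07 with NT (adjusted p = 8.59e-06).

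Ankrd1 (chr19:36111961-36120099, minus strand), a muscle ankyrin repeat protein and frequent YAP/TAZ reporter gene, was at 1345 and 1512 in DMSO, 1724 and 1617 in ET-3 and 1413 and 1312 in NT. The ET-3 libraries were the highest, and the NT libraries overlapped those of DMSO. The gene rose 1.17-fold with ET-3 (0.23 ± 0.06, limma, adjusted p = 0.00984), and with NT its difference was −0.07 ± 0.06 (adjusted p = 0.384). The ET-3 call was lost without DMSO replicate 1 (0.14, limma, adjusted p = 0.159), without ET-3 replicate 1 (0.18, adjusted p = 0.131) and with each treated pair averaged (0.23, adjusted p = 0.221). Removing the coverage trend gave 0.10 with ET-3 (limma, adjusted p = 0.0177) and turned the NT value to 0.11 (adjusted p = 0.0112). Library totals gave 0.32 with ET-3 (limma, adjusted p = 0.000654). The window before the RefSeq start of Ankrd1 held 2 motif matches and that of Amotl2 1 match. A link between these matches and the RNA levels was not tested.

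Between the ligands, Ankrd1 was the single gene of the 10 that was called, lower with NT than with ET-3, where 2.69% of all tested genes were called, 0.647% higher and 2.05% lower. Past a 2-fold change 0 of the 10 were called, beside 0.079% of all genes. Its log2 difference was −0.29 ± 0.06 (limma, adjusted p = 0.0457). The adjusted p ran from 0.00282 to 0.936 over the alternatives, the call was lost when any 1 library was left out, and the difference was 0.01 after removal of the coverage trend. For the other 9 genes the difference between ligands lay between −0.12 and 0.09. The ranges of ET-3 and NT libraries did not overlap for 4 of the 10 genes, as for 49.6% of all genes.

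Expressed per kilobase of exon, the order of the 10 genes changed with treatment. With DMSO, Ankrd1 was the most abundant at 495 ± 40.9 (SD, n = 2), followed by Amotl2 (225 ± 9.11), Wwtr1 (180 ± 2.22), Tead4 (176 ± 5.70), Tead1 (169 ± 2.24), Tead2 (101 ± 6.20), Lats1 (95.6 ± 0.872), Yap1 (91.9 ± 1.07), Tead3 (58.9 ± 0.316) and Lats2 (54.9 ± 3.14). Among neighbors in that order the libraries of Wwtr1 and Tead4 overlapped, so these genes were not separated. With ET-3, Ankrd1 (579 ± 26.2) and Wwtr1 (199 ± 4.14) came first. Tead2 (141 ± 4.43), Lats1 (139 ± 2.42) and Amotl2 (135 ± 13.4) followed with overlapping libraries, then Tead1 (116 ± 2.92), Yap1 (96.4 ± 0.687), Tead4 (72.7 ± 6.49), Lats2 (38.0 ± 0.203) and Tead3 (29.4 ± 2.00). With NT the order was Ankrd1 (472 ± 24.7), Wwtr1 (193 ± 1.04), Amotl2 (139 ± 4.61), Lats1 (138 ± 6.30), Tead2 (129 ± 2.81), Tead1 (120 ± 4.27), Yap1 (91.2 ± 3.44), Tead4 (77.4 ± 3.34), Lats2 (37.9 ± 1.83) and Tead3 (29.3 ± 1.58), with Amotl2 and Lats1 overlapping. Tead4 dropped from the fourth place with DMSO to the eighth with either ligand. Taking the longest transcript as the length kept the order of 39 of the 45 gene pairs in DMSO, and Yap1 then stood sixth. Over its unshared exon bases Lats2 was at 99.1 and 91.4 per kilobase in DMSO, within reach of Tead2, Lats1 and Yap1 rather than last.

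The other regulators of the pathway were examined as a list of 28 genes, of which 27 had a row and were tested. They include the MST kinases, their scaffolds, the angiomotins, the Fat and Dachsous cadherins and the VGLL cofactors that compete for TEAD. With ET-3, 4 rose, 13 fell and 10 were not called, with a median log2 fold change of −0.18, so that 63.0% were called beside 63.7% of all tested genes. With NT, 6 rose, 12 fell and 9 were not called, with a median of −0.16, so that 66.7% were called beside 62.2% of all genes. Of all tested genes, 30.6% were called higher and 33.2% lower with ET-3, and 29.7% higher and 32.5% lower with NT. The lean to lower values depended on scaling. With library totals, 6 regulators rose and 10 fell with ET-3, and 7 rose and 8 fell with NT. Without NT replicate 1 the number called with NT was 11 rather than 18. With each treated pair averaged, fewer were called with either ligand, all of them lower. That fit has 1 sample per treated group, and the share of all tested genes called in it is not given. The drop can therefore not be read as particular to this list.

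Of the MST kinases above LATS, Stk4 rose and Stk3 was not called. Stk3 (MST2) was at 263 and 273 in DMSO, 257 and 256 in ET-3 and 280 and 266 in NT, and was not called with either ligand (limma, adjusted p = 0.430 and 0.747). Stk4 (MST1), at 502 and 449 in DMSO, 553 and 551 in ET-3 and 597 and 600 in NT, rose by 0.22 ± 0.06 and 0.33 ± 0.06 on the log2 scale (limma, adjusted p = 0.00889 and 0.000720). Both Stk4 calls were lost with each treated pair averaged (limma, adjusted p = 0.226 and 0.132). Nf2, the gene of the tumor suppressor Merlin that recruits LATS to the membrane, had scaled values from 795 to 890 and was not called (limma, adjusted p = 0.450 and 0.0873). Stk38, which encodes a LATS-related NDR kinase, was at 762 and 755 in DMSO, 509 and 504 in ET-3 and 542 and 530 in NT and fell in both comparisons (−0.58 ± 0.05 and −0.50 ± 0.05, limma, adjusted p = 2.47e-06 and 7.67e-06).

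The largest changes in this list were in a cadherin and an angiomotin. Dchs1, which encodes the cadherin ligand of Fat4, was at 887 and 852 in DMSO, 157 and 184 in ET-3 and 255 and 237 in NT. The treated libraries were far below DMSO, and those of ET-3 lay below those of NT. Dchs1 fell by 2.35 ± 0.08 on the log2 scale with ET-3 and by 1.82 ± 0.08 with NT (limma, adjusted p = 8.31e-09 and 5.00e-08). Amot, the founding angiomotin and like Amotl2 a YAP-binding protein, was at 749 and 779 in DMSO, 181 and 180 in ET-3 and 251 and 224 in NT. The order of the groups was the same as for Dchs1. Amot fell with both ligands (−2.08 ± 0.07 and −1.68 ± 0.07, limma, adjusted p = 6.81e-09 and 2.91e-08). The related Amotl1, at 987 and 862 with DMSO and 850 to 965 in treated libraries, was not called with either ligand (limma, adjusted p = 0.257 and 0.728), and it is named here after its values were seen. Fat4 had low values of 22 to 55 in all libraries and was called lower with ET-3 (−0.73 ± 0.28, limma, adjusted p = 0.0406, and 0.292 with each treated pair averaged) but not with NT (−0.38 ± 0.28, adjusted p = 0.255). That difference between the ligands was not called (0.35 ± 0.28, adjusted p = 0.539).

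All 3 VGLL genes with a row fell. Vgll2, a muscle cofactor of TEAD, was at 621 and 675 in DMSO, 365 and 379 in ET-3 and 353 and 326 in NT (−0.80 ± 0.06 and −0.93 ± 0.06, limma, adjusted p = 2.60e-06 and 9.42e-07). Vgll3 was at 944 and 756, 631 and 588, and 592 and 651 in the same order (−0.47 ± 0.09 and −0.44 ± 0.09, limma, adjusted p = 0.00136 and 0.00206). Vgll4, a repressor of YAP-TEAD, was at 340 and 356, 297 and 292, and 280 and 281 (−0.24 ± 0.06 and −0.31 ± 0.06, limma, adjusted p = 0.00583 and 0.00133). The treated libraries were below those of DMSO for each of the 3. With each treated pair averaged, the calls were lost for Vgll3 (limma, adjusted p = 0.187 and 0.207) and Vgll4 (adjusted p = 0.0985 and 0.0754).

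Known YAP/TAZ target genes went both ways. Of 20 listed genes, all tested, 8 rose, 9 fell and 3 were not called with ET-3, and 7 rose, 8 fell and 5 were not called with NT. Of all tested genes, 30.6% rose and 33.2% fell with ET-3, and 29.7% rose and 32.5% fell with NT. The median log2 fold change was −0.01 with ET-3 and 0.00 with NT, close to the −0.01 of all tested genes. Past a 2-fold change, 4 were higher and 5 lower with ET-3, where 6.62% and 14.9% of all genes were, and 3 were higher and 5 lower with NT, where 7.3% and 13.2% of all genes were.

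The matricellular targets most used as readouts differed from each other. Ccn2 was at 395 and 479 in DMSO, 156 and 156 in ET-3 and 162 and 132 in NT, and every treated library was well below DMSO. It fell by 1.47 ± 0.12 and 1.57 ± 0.12 on the log2 scale (limma, adjusted p = 2.24e-06 and 1.58e-06). Ccn1, whose promoter match is shown above, was at 855 and 1044, 1107 and 1042, and 898 and 877, with overlapping groups, and was not called (0.18 ± 0.08 and −0.09 ± 0.08, limma, adjusted p = 0.0666 and 0.350).

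The targets with the largest changes included both directions. Fst, which encodes the activin and myostatin antagonist follistatin, was at 684 and 770 in DMSO, 33 and 30 in ET-3 and 27 and 24 in NT (−4.48 ± 0.14 and −4.78 ± 0.14, limma, adjusted p = 4.95e-09 and 4.11e-09). Ccdc80, a matrix protein gene, was at 285 and 306, 13 and 21, and 19 and 15 (−4.08 ± 0.25 and −4.05 ± 0.25, limma, adjusted p = 3.57e-07 and 4.01e-07). Tgfb2, a TGF-beta ligand gene, was at 728 and 783, 70 and 43, and 70 and 59 (−3.76 ± 0.19 and −3.53 ± 0.19, limma, adjusted p = 1.08e-07 and 1.80e-07). In each of these the treated libraries held a small part of the DMSO value. In the other direction, Nt5e, which encodes the ectonucleotidase CD73, was at 27 and 34, 91 and 119, and 83 and 97 (1.75 ± 0.19 and 1.53 ± 0.19, limma, adjusted p = 2.49e-05 and 6.60e-05). Crim1, a BMP-binding membrane protein gene, was at 151 and 89, 337 and 332, and 363 and 331 (1.52 ± 0.19 and 1.57 ± 0.19, limma, adjusted p = 5.39e-05 and 4.51e-05). For both genes all 4 treated libraries were above DMSO. With each treated pair averaged, the calls were lost for Crim1 (limma, adjusted p = 0.122 and 0.120) and for Nt5e with NT (adjusted p = 0.0536). The differentiating muscle genes fell between the same groups of libraries, and their part in these target values was not tested.

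**Figure D4:**
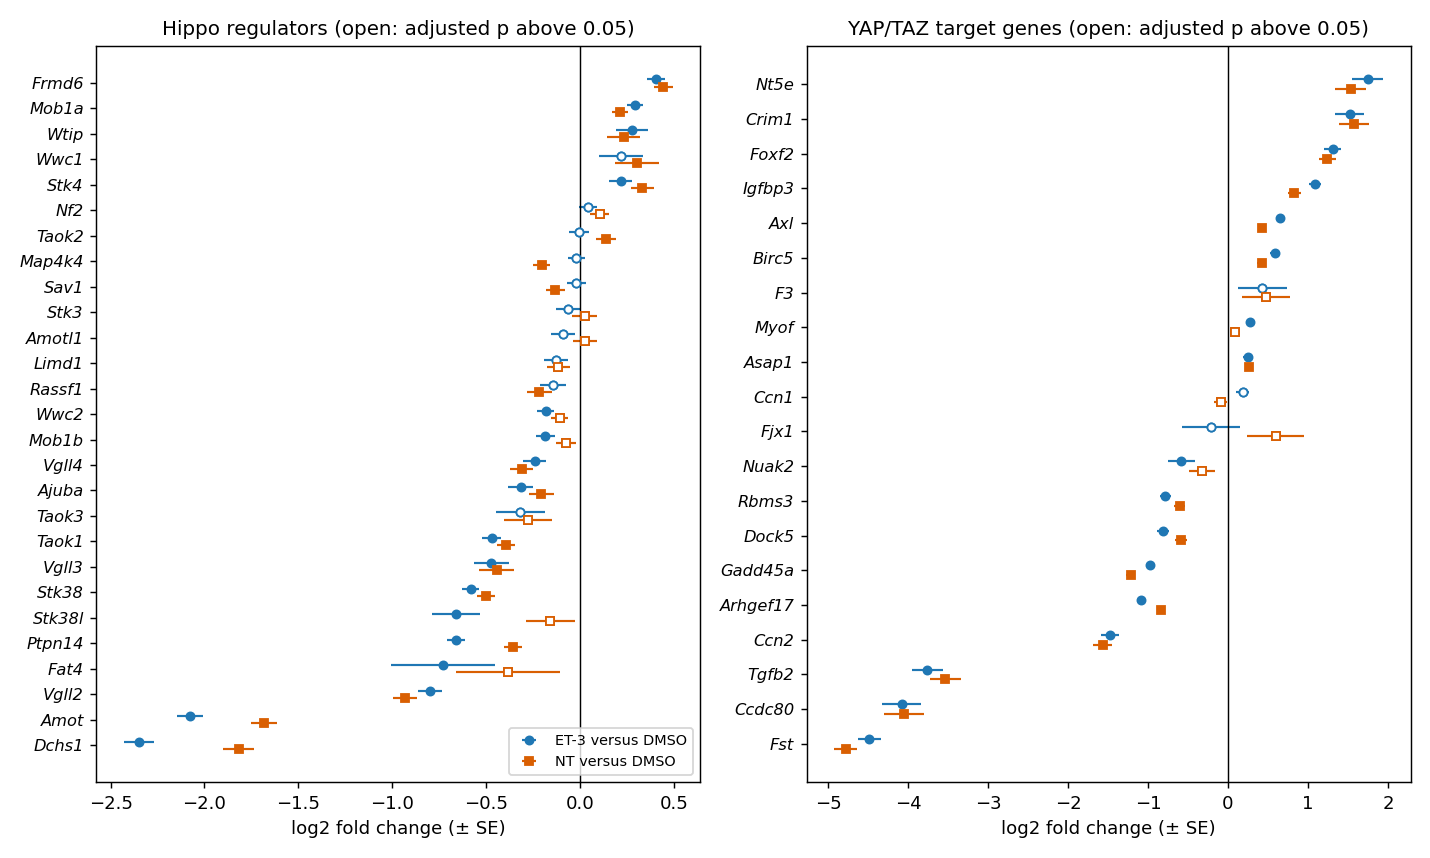
Log2 fold change against DMSO (horizontal axes, ± SE from limma) of the 27 tested Hippo regulators (left) and the 20 YAP/TAZ target genes (right), with circles for ET-3, squares for NT and open symbols for an adjusted p above 0.05. Dchs1 and Amot stand apart at −2.35 and −2.08 with ET-3, and the targets spread from −4.78 (Fst with NT) to 1.75 (Nt5e with ET-3).

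A wider view came from the KEGG term for Hippo signaling that the deposited table assigns to genes, a list added after the results were seen. Without the 10 genes it held 126, of which 115 were tested. With ET-3, 38 rose, 41 fell and 36 were not called, and with NT 35 rose, 50 fell and 30 were not called. These were 68.7% and 73.9% of the list, beside 63.7% and 62.2% of all tested genes. Their median log2 fold change was 0.04 with ET-3 and −0.07 with NT, beside −0.01 for all tested genes.

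Genes with profiles most like those of the members were sought by the root mean square distance of log2(scaled value + 1), centered per gene, over the 6 libraries, among 10209 genes with a mean of at least 50. Nearest to Tead4, the member that changed most, were Lamb2 (distance 0.047), Taf9b (0.050) and Fgf11 (0.055). Lamb2 was at 1147 and 1129 in DMSO, 477 and 462 in ET-3 and 481 and 495 in NT. In all, 56 genes lay within a distance of 0.1 of Tead4. Nearest to Yap1, the member that changed least, were Asna1 (0.011), Rdx (0.017) and Tmed1 (0.018), and 1902 genes lay within 0.1 of it.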

How the data were processed

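RNA of 6 libraries in 3 groups, cultured for 5 days, was measured by bulk RNA sequencing. The authors' processing notes name Trimmomatic 0.38, STAR 2.7.7a, featureCounts 1.6.5, DESeq2 1.30.0 and the mm10 build. The deposited signal is read counts per gene divided by a size factor and rounded to whole numbers. Recovered factors ran from 0.781 to 1.19, and counting error at a scaled value of 100 from 8.84% to 10.9%. The labels name the SMART-Seq HT kit, the study's methods a stranded kit, and use of strand in counting is not given in the sources used here. Positions equal those of GENCODE M21 for all 10 members.

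Because the values are not counts, limma 3.58.1 (R 4.3.3) with an intensity trend was fitted to log2(value + 1) of all 6 libraries without covariates, after leaving out 5022 genes with a mean under 5. The script was tested on simulated data. Members and lists were chosen with earlier results of these data known. Named besides the 10 members are the 5 genes of each list with the largest mean change over both ligands, Ccn1, Ccn2, Stk3, Stk4, Nf2, the VGLL genes, the 3 nearest profiles of the members that changed most and least, Pax7, Myod1 and Myog. Alternatives changed the filter, scaling, pseudocount, model, treatment of pairs and libraries. Columns of annotation were used only for names and the KEGG term. One list of marker genes is not reported here.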

Additional observations from a re-analysis of the deposited data

Results flagged for a closer look

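Of the genes named by the fixed rule, 4 differed between the ligands when NT was set against ET-3 (limma with Benjamini-Hochberg adjustment over all tested genes). Ankrd1 was lower with NT by a log2 difference of −0.29 (adjusted p = 0.0457), in 2 of 2 NT libraries against both ET-3 libraries. Myod1, the myogenic determination factor, was at 1324 and 1444 in DMSO, 1539 and 1449 in ET-3 and 1192 and 1100 in NT, a difference of −0.38 between the ligands (limma, adjusted p = 0.0379). Dchs1 and Amot were less reduced with NT than with ET-3, by 0.53 and 0.39 (limma, adjusted p = 0.0379 for each). With each treated pair averaged to 1 sample, the Myod1, Dchs1 and Amot calls were lost. Their differences were then −0.38, 0.53 and 0.39. Of all 13921 tested genes 375 were called in this comparison, and 0 of the members, regulators and targets were called when any 1 library was left out.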

How the results depend on the processing

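Of 170 member fold changes under alternatives in each comparison, 161 with ET-3, 158 with NT and 147 between the ligands kept their direction and side of the threshold. With each treated pair averaged to 1 sample, an alternative with fewer samples, 5 members and 6 regulators were called with ET-3 and 5 regulators with NT. A 2-fold threshold left 1 member, 2 regulators and 9 targets with ET-3, and 2 members, 2 regulators and 8 targets with NT. Leaving out 1 library at a time gave 7 to 9 members, 14 to 17 regulators and 15 to 18 targets with ET-3, and 7 to 7 members, 11 to 15 regulators and 15 to 16 targets with NT, the lowest regulator count without NT replicate 1.

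Between the ligands, where 1 member, 3 regulators and 4 targets were called, each leave-one-out fit, the 2 groups alone, averaged pairs, the 2-fold threshold and no filter on low values called 0 of each. Removing the coverage trend, chosen after seeing the data, called 0 members, 1 regulator and 0 targets, a pseudocount of 0.5 called 0 members and 2 targets, and a mean of at least 20 or voom on recovered reads each called 5 regulators. With the replicate number as a block, 0 members, 0 regulators and 0 targets were called between the ligands, and no other count moved by over 1.5 times. Libraries sharing a number did not deviate together (correlations −0.00798, −0.0704 and −0.0217). The treated pairs differed by no more than counting error, so these correlations cannot show whether a shared number marks a shared origin.

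Signs turned for small, mostly uncalled values. With NT, Yap1 was 0.10 with library totals and 0.0315 with the upper quartile, and ran from −0.0499 to 0.0269 as 1 library was left out, with 0.00034 without DMSO replicate 2. Ankrd1 with NT was 0.0463 with library totals and 0.11 after coverage removal, and ran from −0.151 to 0.0176, the latter without DMSO replicate 2. Between the ligands, coverage removal gave 0.073 for Wwtr1, 0.0434 for Lats1 and 0.00992 for Ankrd1, and library totals gave 0.0172 for Tead3, 0.0176 for Lats1 and 0.0176 for Lats2. Leaving out 1 library gave −0.0758 to 0.0624 for Tead3, −0.0528 to 0.0401 for Lats1, −0.0553 to 0.0428 for Lats2 and −0.0611 to 0.141 for Amotl2. With longest transcripts, 39 gene pairs kept their order per kilobase and the DMSO shares were 16.5% for Tead3 and 29.7% for Tead4. The cause was not tested in any of these cases.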
